A study of Mus musculus with 36 samples.

Results

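The interferon-induced genes followed here were 42 genes of the mouse, picked by name, and each of the 42 was found in the FPKM table of 27562 genes. By role they comprised 5 RNA and DNA sensors, 5 transcription factors and feedback genes, 16 antiviral effectors, 8 interferon-inducible GTPases and 8 other induced genes. Their levels were read in 36 libraries of lung alveolar macrophages (AΦ) and lung monocytes, 3 libraries in each of 12 groups. FPKM is the number of fragments mapped to a gene, scaled to the length of its transcript and to the fragments mapped in the library. The FPKM carry no read counts, so the depth behind a value is unknown, and with 3 libraries a group an exact test on a single value could not go below p = 0.1.

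All mice were male C57BL/6J (CD45.2) hosts that were irradiated under a lead shield over the chest, given busulfan and transplanted with marrow of CD45.1 congenic donors (B6.SJL-Ptprc a Pepc b/BoyJ). The irradiation, the drug and the transplant were therefore shared by every group, FA controls included. The chimeras breathed filtered air (FA) or concentrated ambient PM2.5 in exposure chambers for 4 or 32 weeks. AΦ were sorted as CD64+ CD11c hi CD11b lo cells, and monocytes as CD11b hi, CD64 lo cells that lacked Ly6G and MHC II. At 4 weeks the libraries came from CD45.2 cells: tissue-resident AΦ (TR-AΦ) and CD45.2 monocytes (Mono). At 32 weeks CD45.2 TR-AΦ and CD45.1 bone marrow-derived AΦ (BM-AΦ) were sequenced apart, as were 2 groups of monocytes labelled Mono1 and Mono2. Mono1 is read here as CD45.1 and Mono2 as CD45.2 by the numbering used for the AΦ, which the sources do not state for monocytes. In the model, blood monocytes are of donor (CD45.1) origin and cells resident in the shielded lung are CD45.2, so the CD45.2 monocytes are cells that the host kept. Per the study's methods the 3 libraries of a group are biological replicates, with 3 mice taken at random per exposure and time point. The cell populations of an exposure and time point may therefore come from the same mice, and the labels do not tie libraries to mice.

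Interferons are secreted when cells sense viral or misplaced nucleic acid. Type I interferon acts through a complex that holds STAT2 and IRF9 and binds the interferon-stimulated response element (ISRE), and interferon gamma acts through the gamma-activated site (GAS). The induced genes encode sensors, transcription factors and proteins that block viral replication, and many are also expressed at a resting level in myeloid cells of the lung.

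Siglecf and Ccr2, a defining marker of each cell type, parted the sorted AΦ from the monocytes. Siglecf was 69.6 to 157 FPKM in the AΦ libraries and 0.179 to 8.99 FPKM in the monocyte libraries, whereas Ccr2 was 2.09 to 36.8 and 159 to 938 FPKM. Both libraries numbered 2 of the 4-week monocytes stood apart. The summed FPKM of 8 neutrophil markers was 315 in the FA and 996 in the PM2.5 library, against 0.728 to 43 in the other 4 libraries of Mono at 4 weeks, and 7 markers of T and NK cells summed to 81.9 and 86.7 against 2.81 to 12.2. The sum of 7 interstitial macrophage markers was 4.43 and 4.6 FPKM in them, against 167 to 423. In Mono2 at 32 weeks the interstitial macrophage sum was 915 to 3388 FPKM, above the 233 to 787 FPKM of the AΦ libraries. The sum of 10 alveolar macrophage markers was 6663 to 14096 FPKM in AΦ and 254 to 1588 FPKM in monocytes. The part of macrophage RNA in the comparisons with monocytes was not tested. The sum of 7 non-classical monocyte markers was 2138 to 3946 FPKM in Mono at 4 weeks, 739 to 1870 in Mono1 and 584 to 1533 in Mono2 at 32 weeks. In bulk RNA, fewer cells of a type and less RNA per cell cannot be told apart. Counts of members called, and the leading members of each comparison that uses Mono at 4 weeks, are therefore also given without all libraries numbered 2.

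The promoters of members showed which of the letters bound by these factors lay near their start sites. RefSeq start sites on GRCm38.p6, taken from 250 bases before to 50 bases after the start, were at hand for 31 of the 42 members. The ISRE was searched as GAAANNGAAA and the GAS as TTCNNNGAA, on both strands, and overlapping matches of the ISRE were each counted. An ISRE was found for 19 of the 31 members (61.3%), against 3.99% of the 27025 genes with such a window, and a GAS for 10 (32.3%), against 9.55% of all genes. The ISRE was in 7 of 8 GTPase promoters, 9 of 13 effector promoters, both sensor promoters, 1 of 4 promoters of transcription factors and feedback genes and 0 of 4 of the other induced genes. Of a further 27 interferon-induced genes, 13 had an ISRE and 2 had a GAS. A match is a description of letters and not a site of binding. The windows of 5 members that differed in their pattern of expression are shown 5′ to 3′ on the strand of the gene, with matches in capitals. Isg15 (chr4:156200769-156201068, minus strand) had 3 overlapping ISRE matches, which began 78, 72 and 66 bases before the start, and Oas3 (chr5:120777610-120777909, minus strand) had 1 that began 75 bases before it. Irf1 (first of its windows, chr11:53769764-53770063, plus strand) had a GAS that began 90 bases before the start and no ISRE. Gbp7 (chr3:142530086-142530385, plus strand) had an ISRE at 53 and GAS matches at 106 and 87 bases before the start, and Lgals3bp (chr11:118401910-118402209, minus strand) had neither.
Isg15: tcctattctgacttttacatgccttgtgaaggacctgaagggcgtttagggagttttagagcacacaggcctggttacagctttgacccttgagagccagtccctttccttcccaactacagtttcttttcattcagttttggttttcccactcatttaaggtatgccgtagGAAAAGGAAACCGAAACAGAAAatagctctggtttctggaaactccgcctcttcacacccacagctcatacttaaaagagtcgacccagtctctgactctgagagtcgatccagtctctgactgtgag
Oas3: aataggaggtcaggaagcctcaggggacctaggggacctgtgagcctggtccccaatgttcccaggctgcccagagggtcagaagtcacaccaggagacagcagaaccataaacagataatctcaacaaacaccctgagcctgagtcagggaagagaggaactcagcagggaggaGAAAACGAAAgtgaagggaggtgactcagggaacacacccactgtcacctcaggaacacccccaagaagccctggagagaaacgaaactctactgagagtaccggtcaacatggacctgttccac
Irf1: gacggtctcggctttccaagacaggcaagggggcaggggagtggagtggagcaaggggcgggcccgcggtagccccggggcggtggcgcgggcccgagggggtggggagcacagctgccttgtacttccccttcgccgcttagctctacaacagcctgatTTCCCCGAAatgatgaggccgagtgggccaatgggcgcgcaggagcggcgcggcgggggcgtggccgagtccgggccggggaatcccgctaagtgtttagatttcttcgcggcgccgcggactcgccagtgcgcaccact
Gbp7: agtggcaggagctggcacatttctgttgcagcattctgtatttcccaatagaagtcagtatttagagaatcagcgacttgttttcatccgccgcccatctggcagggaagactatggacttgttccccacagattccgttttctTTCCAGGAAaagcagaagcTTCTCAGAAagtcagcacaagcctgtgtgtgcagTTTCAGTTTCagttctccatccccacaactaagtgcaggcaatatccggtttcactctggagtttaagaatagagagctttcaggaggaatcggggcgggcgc
Lgals3bp: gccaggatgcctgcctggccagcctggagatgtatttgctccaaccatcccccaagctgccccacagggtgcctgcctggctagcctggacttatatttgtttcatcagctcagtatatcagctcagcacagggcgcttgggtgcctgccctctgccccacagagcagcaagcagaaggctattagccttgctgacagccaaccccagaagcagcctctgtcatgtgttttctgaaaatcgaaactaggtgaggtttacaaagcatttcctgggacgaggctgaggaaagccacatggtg

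The level of most members set monocytes apart from AΦ. In AΦ, 15 of the 42 members had a mean under 1 FPKM over the 18 libraries, and only 5 of the 16 antiviral effectors reached it. Mx1, grouped here with the antiviral effectors, was listed at 0 FPKM in 8 of the 18 AΦ libraries and was 0.739 to 9.92 FPKM in the 18 monocyte libraries. Usp18, which damps signalling at the interferon receptor, was at 0 in 9 AΦ libraries and had a mean of 3.67 FPKM in monocytes. Ifi44 stayed under 1 FPKM on average in both cell types (0.0464 and 0.32 FPKM). The most abundant members also differed between the cell types. Lgals3bp, a secreted glycoprotein, led in AΦ with a mean of 91.7 ± 22.3 FPKM (SD, n = 18), and Ifi27l2a led in monocytes with a mean of 262 FPKM, against 13.1 FPKM in AΦ.

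**Figure D1:**
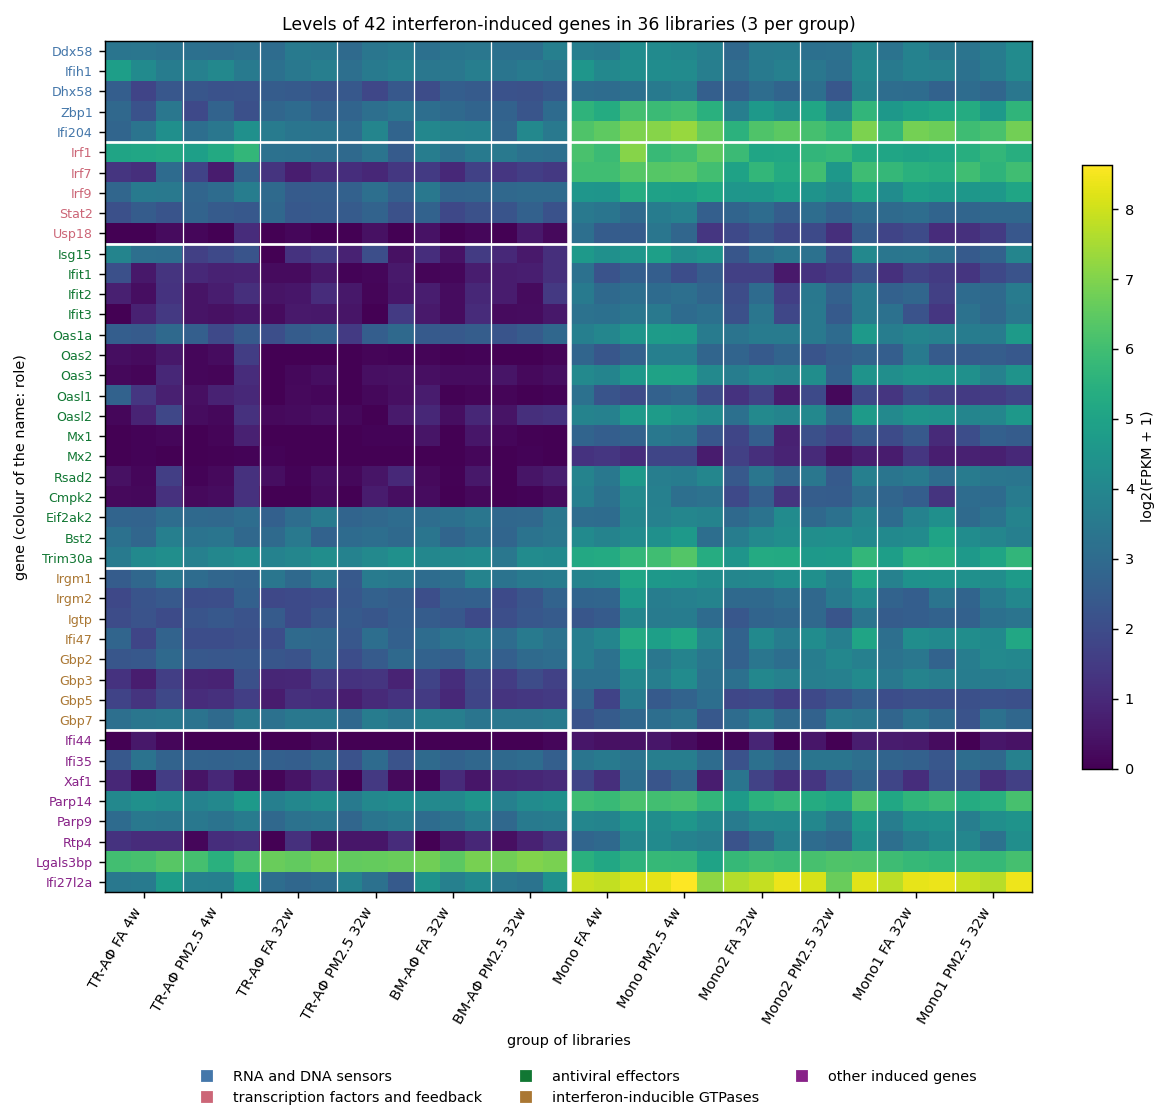
Heat map of log2(FPKM + 1) of the 42 members (rows, name coloured by role) in the 36 libraries (columns, 3 per group; the thick white line parts AΦ from monocytes). Most effectors are dark on the AΦ side, with 15 members under a mean of 1 FPKM there, whereas Lgals3bp is brighter in AΦ.

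Cell types were compared within a time point and an origin by limma on log2(FPKM + 1), a scale on which the fold of a weakly expressed member comes out too small. Of 42 members 40 passed the filter of a mean of 1 FPKM over all 36 libraries, of which 13 had a mean under 1 FPKM in AΦ and passed through the monocytes. At 4 weeks 2 members were higher and 37 were lower in TR-AΦ than in Mono, where 22.6% and 25.5% of all 13307 genes were called higher and lower (adjusted p under 0.05, Benjamini-Hochberg). At 32 weeks 1 member was higher and 32 were lower in TR-AΦ than in Mono2 (background 23.6% and 23.7%), and 2 were higher and 33 lower in BM-AΦ than in Mono1 (27.1% and 23.8%). The medians of the members tested were -1.67, -1.36 and -1.39, and those of all genes were -0.02, 0 and 0.03. When the 27 members that reached 1 FPKM in both cell types were taken alone, 24, 19 and 21 were lower in the 3 comparisons and 2, 1 and 2 were higher. Their medians were smaller in size, at -1.27, -1.02 and -0.87. The medians over all 40 include the 13 that passed through the monocytes, so they are only a description.

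Among transcription factors, Irf7, which drives type I interferon expression after induction, was 0.562 to 7.06 FPKM (median 1.96) in TR-AΦ at 4 weeks and 62 to 84.7 FPKM (median 72.3) in Mono. The groups did not overlap, and limma gave a difference of -4.41 ± 0.30 on the log2 scale (SE, adjusted p 1.32e-12). At 32 weeks Irf7 differed by -4.34 between TR-AΦ and Mono2 and by -4.27 between BM-AΦ and Mono1 (adjusted p 2.23e-12 and 2.96e-12). Of the 4 transcription factors and feedback genes that reached a mean of 1 FPKM in both cell types, 4 were lower in TR-AΦ than in Mono at 4 weeks and in BM-AΦ than in Mono1, and 3 were lower in TR-AΦ than in Mono2. The exception was Stat2, a part of the ISRE-binding complex, with means of 4.75 ± 1.05 FPKM (SD, n = 6) in TR-AΦ and 6.34 ± 1.12 FPKM in Mono2 (-0.36, adjusted p 0.096).

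Of 15 antiviral effectors tested, 10 had a mean under 1 FPKM in AΦ and entered the test through the monocytes. Of the other 5, 5 were lower in AΦ at 4 weeks and 4 in each comparison at 32 weeks, where 25.5%, 23.7% and 23.8% of all genes were lower. Oas3, Oasl2, Rsad2 and Ifit3, given next, were among the 10, so their p-values are only a description. Bst2 was among the 5. Oas3, an enzyme that makes 2′-5′ oligoadenylate for RNase L, whose promoter is shown above, was 0.0813 to 1.13 FPKM in TR-AΦ and 13.9 to 30.2 FPKM in Mono at 4 weeks. These ranges lay far apart, with a log2 difference of -3.98 ± 0.24 (SE, adjusted p 1.12e-13). Its log2 fold change was -3.60 for TR-AΦ against Mono2 and -3.96 for BM-AΦ against Mono1 at 32 weeks (adjusted p 1.05e-12 and 1.38e-13). Oasl2, of the same family, was 0.101 to 2.6 FPKM (median 0.526) in TR-AΦ and 12.7 to 26 FPKM (median 19) in Mono at 4 weeks, and it differed by -3.52, -3.52 and -3.38 in the 3 comparisons (adjusted p at most 1.41e-10). Rsad2, the radical SAM enzyme viperin, differed by -3.26, -2.64 and -3.04 (adjusted p at most 2.14e-09). Ifit3, which binds viral RNA together with Ifit1, had means of 0.586 ± 0.584 FPKM (SD, n = 6) in TR-AΦ and 8.58 ± 1.17 FPKM in Mono at 4 weeks (-2.66, adjusted p 2.38e-08). Bst2, the membrane tether tetherin, was expressed in both cell types, with means of 8.59 ± 2.24 and 16.5 ± 5.64 FPKM (-0.82, adjusted p 0.00195). In TR-AΦ at 4 weeks Rsad2 was 0.302, 0.109 and 2.02 FPKM in FA, against 0.0611, 0.176 and 1.37 FPKM in PM2.5. The highest value of each group was that of its library numbered 2, which also held more neutrophil marker RNA (sums of 18.4 and 47 FPKM against 0.25 to 4.35). Sums of monocyte markers (523 and 639 FPKM against 280 to 415) and of non-classical markers (443 and 522 against 206 to 341) were also highest there. So were the levels of Irf7, Ifi204 and Ifi27l2a among TR-AΦ at 4 weeks. The part of such RNA in these levels was not tested.

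Among the sensors Ifih1, which detects RNA and encodes MDA5, had a mean of 15.7 ± 6.22 FPKM (SD, n = 6) in TR-AΦ and 17 ± 3.49 in Mono at 4 weeks, and 10.1 ± 1.85 in TR-AΦ and 10.7 ± 2.97 in Mono2 at 32 weeks. The ranges overlapped, and the log2 differences were -0.16 (95% interval -0.54 to 0.23) and -0.05 (-0.44 to 0.33), with adjusted p of 0.517 and 0.853 from limma. Ddx58, the RNA sensor RIG-I, was lower in TR-AΦ at 4 weeks (-0.63 ± 0.17, SE, adjusted p 0.0024) but was not called at 32 weeks (-0.07 and -0.27, adjusted p 0.767 and 0.187). In contrast, the DNA sensor Ifi204 was 6 to 19.1 FPKM in TR-AΦ and 75.7 to 159 FPKM in Mono at 4 weeks. Its ranges did not overlap and its log2 fold changes were -3.23, -2.83 and -2.70 in the 3 comparisons (adjusted p at most 8.81e-09).

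Among the other induced genes, Ifi27l2a and Rtp4 had the largest called differences. Ifi27l2a, a small membrane protein, was 9.91 to 28.5 FPKM (median 12.5) in TR-AΦ and 144 to 397 FPKM (median 265) in Mono at 4 weeks, with no overlap. It differed by -3.98, -4.75 and -4.18 in the 3 comparisons (adjusted p at most 2.69e-11). Rtp4, a chaperone of receptors, was 0 to 1.35 FPKM (median 0.619) in BM-AΦ and 7.86 to 18.2 FPKM (median 13) in Mono1 (-3.07 ± 0.30, SE, adjusted p 2.37e-09). Its mean over the AΦ libraries was 0.769 FPKM, so Rtp4 entered the test through the monocytes, where it was high. The p-value of Rtp4 is therefore only a description.

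Only Lgals3bp and Gbp7 among the 40 members tested were called higher in AΦ. Lgals3bp was 43.3 to 82.5 FPKM (median 68.1) in TR-AΦ and 31.5 to 53.8 FPKM (median 45.4) in Mono at 4 weeks, with a log2 fold change of 0.57 ± 0.13 (SE, adjusted p 0.000511), and the ranges overlapped. At 32 weeks it was 92.8 to 107 FPKM in TR-AΦ and 53.6 to 75.6 in Mono2, which did not overlap (0.59 ± 0.13, SE, adjusted p 0.000359), and BM-AΦ exceeded Mono1 by 0.94 (adjusted p 5.48e-07). Gbp7, a guanylate-binding GTPase, was higher by 0.56 at 4 weeks (adjusted p 0.0164) and by 0.63 in BM-AΦ against Mono1 (adjusted p 0.00665), but its difference between TR-AΦ and Mono2 was not called. The call on Gbp7 at 4 weeks was lost without the FA library numbered 0 or the PM2.5 library numbered 2 of Mono (adjusted p 0.0524 and 0.0717) and without all libraries numbered 2 (0.193). Without those libraries 38, 32 and 33 members were called in the 3 comparisons, in either direction. At 4 weeks the log2 differences were then -4.97 for Irf7, -4.33 for Oas3, -3.84 for Oasl2, -3.45 for Rsad2, -3.61 for Ifi204 and -4.56 for Ifi27l2a, and that of Lgals3bp was 0.38 (adjusted p 0.0377).

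**Figure D2:**
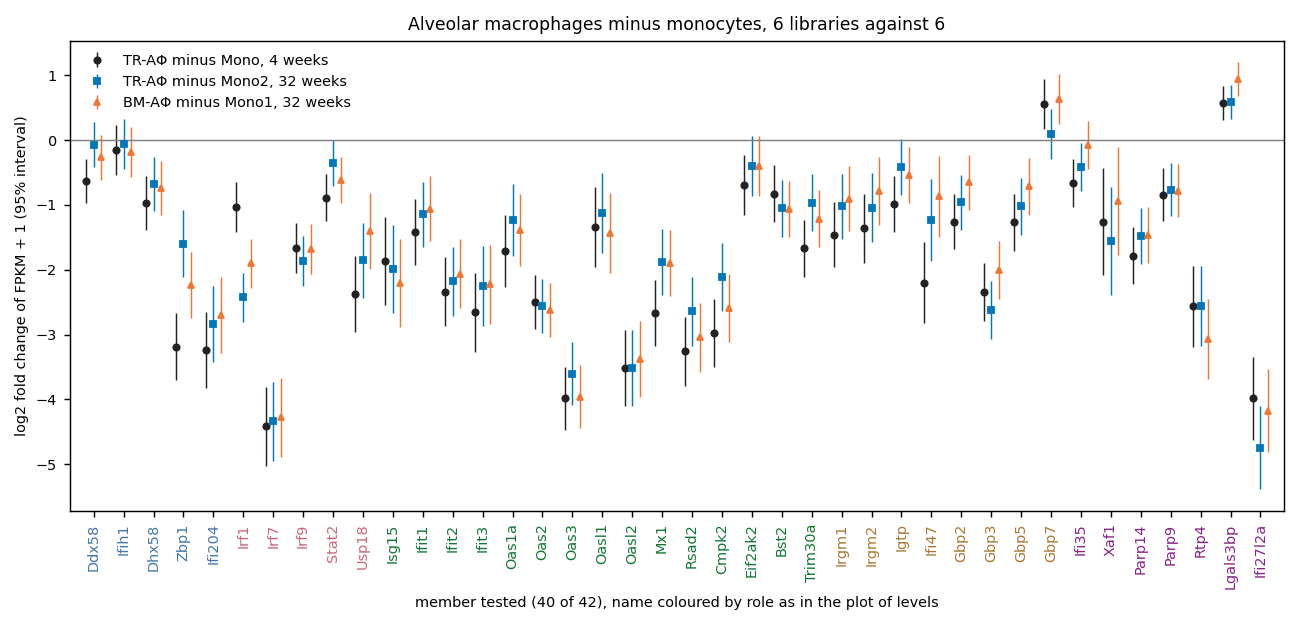
Log2 fold change of FPKM + 1, with 95% intervals from limma, of the 40 members tested, for TR-AΦ minus Mono at 4 weeks (circles), TR-AΦ minus Mono2 at 32 weeks (squares) and BM-AΦ minus Mono1 at 32 weeks (triangles). Points lie below 0 apart from Gbp7 and Lgals3bp, down to -4.75 for Ifi27l2a. Ifih1 lies near 0, and Ddx58 lies closer to it at 32 weeks than at 4 weeks.

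The receptor chains Ifnar1 and Ifngr1 were also lower in TR-AΦ than in Mono at 4 weeks. Ifnar1, a chain of the type I interferon receptor, was 6.84 to 16.9 FPKM in TR-AΦ and 21.6 to 44.2 FPKM in Mono at 4 weeks (log2 fold change -1.49, adjusted p 1.22e-07), with no overlap. Ifngr1, a chain of the interferon gamma receptor, differed by -1.56 (adjusted p 3.99e-07), and both genes were chosen after their values were seen. Among 13 genes of upstream sensing, 3, 2 and 2 were higher and 6, 5 and 5 lower in AΦ. Of all genes 22.6%, 23.6% and 27.1% were called higher and 25.5%, 23.7% and 23.8% lower, so the higher counts lay near or below these shares. Mavs, the mitochondrial adaptor of Ddx58 and Ifih1, was higher in AΦ by 2.16, 1.88 and 2.18 (adjusted p at most 2.70e-13), and Tlr9, a DNA receptor, was lower by a log2 fold change of -3.45, -5.27 and -4.10 (adjusted p at most 2.58e-09). Of 29 further interferon-induced genes tested, 22, 19 and 20 were lower and 1 was higher in each comparison, beside the same shares of all genes. Some of the 29 had a mean under 1 FPKM in AΦ and passed the filter through the monocytes, so the counts of lower genes are only a description. The lowest relative to Mono at 4 weeks were Ms4a4c (-5.05), Slfn5 (-4.81) and Slfn1 (-3.90), and the higher gene was Gbp8, by 1.82, 1.35 and 1.31 (adjusted p at most 1.47e-07).

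Between 4 and 32 weeks, 1 member rose and 2 fell in TR-AΦ of the 27 tested, where 2.56% of 12665 genes were called higher and 3.35% lower. FA and PM2.5 libraries were averaged over, so that 6 libraries stood against 6. The median over the members was -0.10 and that over all genes 0.03. Weeks of exposure cannot be told apart from the age of the mice, nor from anything else that differed between the 4- and 32-week collections. Irf1, a transcription factor induced by interferon gamma and NF-κB, was 32.1, 33.3 and 36.5 FPKM in FA at 4 weeks, against 28.3, 36.7 and 51.6 FPKM in PM2.5. At 32 weeks it was 8.29, 8.16 and 7.43 FPKM in FA, against 6.72, 9.13 and 4.64 FPKM in PM2.5. Every 4-week library was above every 32-week library, and limma gave a log2 difference of -2.16 ± 0.15 (SE, adjusted p 2.76e-06). In BM-AΦ at 32 weeks Irf1 was 7.98 to 11.7 FPKM.

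Isg15, a ubiquitin-like protein that is attached to other proteins, fell in TR-AΦ by 1.63 ± 0.33 (SE, adjusted p 0.0109) on the log2 scale. At 4 weeks it was 14, 7.9 and 7.69 FPKM in FA, against 2.08, 2.74 and 3.71 FPKM in PM2.5, and at 32 weeks it was 0, 1.42 and 1.95 FPKM in FA, against 0.788, 3.2 and 0.319 FPKM in PM2.5. All FA libraries at 4 weeks were above all others, whereas the PM2.5 libraries at 4 weeks overlapped those at 32 weeks. Without all libraries numbered 2 Isg15 was no longer called (-1.60, adjusted p 0.0798). Lgals3bp was 63.4, 69.2 and 82.5 FPKM in FA, against 67.9, 43.3 and 68.2 FPKM in PM2.5 at 4 weeks. It rose to 92.8 to 107 FPKM at 32 weeks, with no overlap and a log2 fold change of 0.59 ± 0.12 (SE, adjusted p 0.0115). Without the libraries numbered 2 it was 0.66 and was not called (adjusted p 0.0689).

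Taken within FA, 0 members rose and 2 fell in TR-AΦ (0.15% and 0.632% of all genes), namely Isg15 (-2.45, adjusted p 0.0209) and Irf1 (-1.96, adjusted p 0.000473). The Isg15 call was lost when the library of TR-AΦ FA numbered 0 or 1 at 4 weeks or numbered 0 at 32 weeks was left out (adjusted p 0.126, 0.0668 and 0.0857), which left 1 member called. Within PM2.5, 0 rose and only Irf1 fell of the 27 members (-2.35, adjusted p 0.000103; 0.268% and 0.782% of all genes), and leaving out the PM2.5 library numbered 0 at 4 weeks gave 2 calls. Both counts rest on the same libraries as the comparison over both exposures.

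Among other genes of the pathway in TR-AΦ over time Cxcl10, an interferon-induced chemokine, had a mean of 129 FPKM at 4 weeks and 1.67 FPKM at 32 weeks (-5.60, adjusted p 2.04e-06) and was the only 1 of 24 further induced genes called. Of 8 negative regulators 2 fell, Socs3 (45.6 to 9 FPKM, -2.07, adjusted p 0.0118) and Trex1 (-1.02, adjusted p 0.0339). The adaptor Myd88 fell by 0.31 on the log2 scale (adjusted p 0.0278). Over all genes 2.56% were called higher and 3.35% lower in TR-AΦ.

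In monocytes, of 41 members tested, 1 was higher and 9 were lower in Mono2 at 32 weeks than in Mono at 4 weeks (7.06% and 7.83% of 12856 genes). A negative log2 fold change was found for 36 of the 41, beside 7075 of all 12856 genes. The median was -0.45 over the members and -0.05 over all genes. The 9 were the effectors Isg15, Oasl1, Cmpk2, Ifit1 and Rsad2, the sensors Zbp1 and Ifih1 and the transcription factors Irf1 and Irf7. With only the groups compared in the fit, 5 members were called in place of 10. The sums of non-classical monocyte, neutrophil and interstitial macrophage markers given above moved between the same libraries, as did the sum of 5 plasmacytoid dendritic cell markers (0.119 to 2.59 FPKM in Mono at 4 weeks and 5.99 to 13.8 FPKM in Mono2), and their part in these differences was not tested.

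Isg15 was 23.6, 19.3 and 22.3 FPKM in FA, against 28.1, 18.2 and 20.9 FPKM in PM2.5 monocytes at 4 weeks. In Mono2 at 32 weeks it was 3.98, 7.74 and 9.43 FPKM in FA, against 8.39, 2.97 and 15.3 FPKM in PM2.5. The time points did not overlap, and Isg15 differed by -1.50 ± 0.32 (SE, adjusted p 0.00611). Zbp1, a sensor of Z-form nucleic acid, was 38.6 to 65.3 FPKM (median 53.1) at 4 weeks and 12.1 to 50.5 FPKM (median 21.3) in Mono2 at 32 weeks (-1.15 ± 0.27, SE, adjusted p 0.0106), with overlap from 1 PM2.5 library of Mono2. Cmpk2, a mitochondrial nucleotide kinase next to Rsad2 on chromosome 12, was 7.83 to 15.7 FPKM at 4 weeks and 1.45 to 7.56 FPKM at 32 weeks (-1.21 ± 0.28, SE, adjusted p 0.0092), without overlap. Oasl1, which restrains translation of Irf7, was 3.01 to 8.37 FPKM at 4 weeks and 0.139 to 2.83 FPKM at 32 weeks, without overlap (-1.24 ± 0.32, SE, adjusted p 0.0172). Ifit1, which binds the ends of viral RNA, was 3.1 to 8.29 and 0.501 to 3.64 FPKM, with overlap (-1.06 ± 0.25, SE, adjusted p 0.0116).

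Rsad2 was 10.1 to 23.2 FPKM at 4 weeks and 4.32 to 12.4 FPKM in Mono2 at 32 weeks (-0.83 ± 0.24, SE, adjusted p 0.03), with overlapping ranges. Its call was lost when any of 5 libraries was left out, namely numbers 2 of Mono FA and of Mono PM2.5 and, in Mono2, numbers 0 and 2 of FA and number 1 of PM2.5 (adjusted p 0.0504 to 0.0812). Lgals3bp was 31.5 to 53.8 FPKM at 4 weeks and 53.6 to 75.6 FPKM in Mono2, with a log2 fold change of 0.57 ± 0.14 (SE, adjusted p 0.0118). Its ranges overlapped by a narrow margin. Without all libraries numbered 2, 10 members were called. Isg15, Zbp1 and Cmpk2 were among them (-1.86, -1.34 and -1.09, adjusted p 0.0122, 0.0384 and 0.0225), but Rsad2, Ifit1, Oasl1 and Lgals3bp were not (adjusted p 0.137, 0.0589, 0.0584 and 0.0551). Without the FA library numbered 2 of Mono alone, 6 members were called.

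Among other genes of the pathway in monocytes, 7 of 29 further induced genes fell and 0 rose, with the largest changes for Cxcl10 (74.1 to 15 FPKM, -2.23, adjusted p 5.48e-05), Ifi205 (-1.42, adjusted p 0.0096) and Isg20 (-1.19, adjusted p 0.00483). Of 8 negative regulators 4 fell and 0 rose. Over all genes 7.06% were called higher and 7.83% lower in Mono2 than in Mono. Of 13 sensing genes 2 rose, the nucleic acid receptors Tlr3 (1.33, adjusted p 0.00264) and Tlr9 (0.57, adjusted p 0.0381), and the kinase Ikbke fell (-1.29, adjusted p 0.00648). The interferon genes themselves were at low FPKM, and the 11 of 21 in the table reached 3.83 FPKM at most. Ifnb1 was above 0 in 6 of 6 libraries of Mono at 4 weeks (0.288 to 2.63 FPKM) and in 4 of 6 of TR-AΦ at 4 weeks, and it was listed at 0 in all 12 libraries of Mono1 and Mono2 at 32 weeks. Ifng was above 0 in 3 libraries of Mono at 4 weeks, namely FA numbered 0 (0.313 FPKM), FA numbered 2 (1.11 FPKM) and PM2.5 numbered 2 (3.83 FPKM), and was listed at 0 in the others. Both libraries numbered 2 are those with the high T and NK cell sums.

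**Figure D3:**
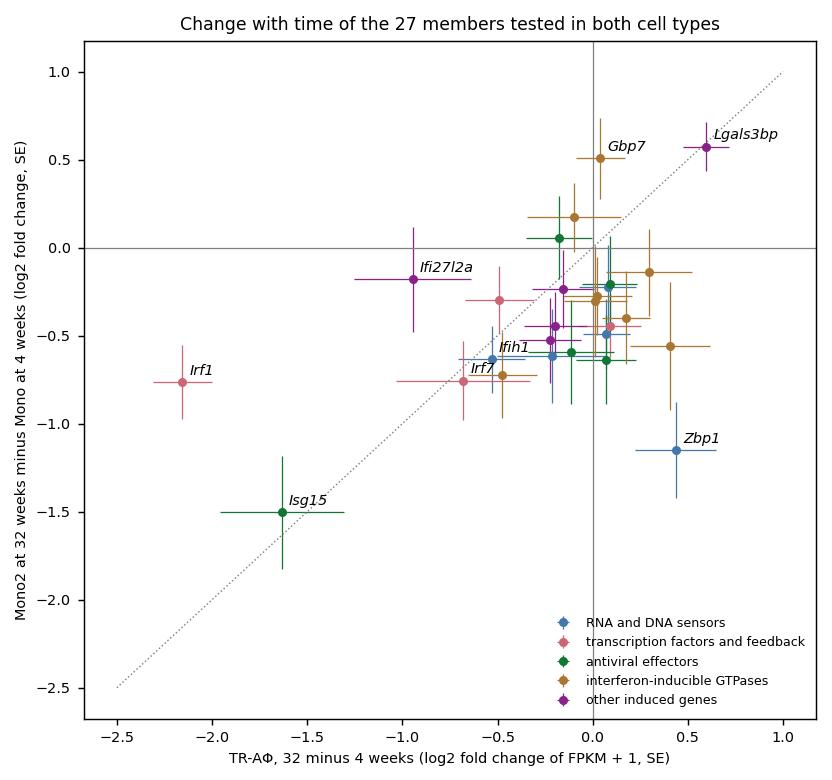
Log2 fold change of FPKM + 1 between 32 and 4 weeks in TR-AΦ (horizontal) and between Mono2 at 32 weeks and Mono at 4 weeks (vertical), with SE, for the 27 members tested in both; the dotted line marks equal change. Isg15 and Lgals3bp lie close to the line, Irf1 lies left of it and Zbp1 lies below it.

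The change with time differed between TR-AΦ and monocytes for 2 of 40 members, where 7.88% of 13307 genes were called. Irf1 changed by a further -1.39 ± 0.26 (SE, adjusted p 0.00108 from limma, interaction term) in TR-AΦ, that is, it fell more in TR-AΦ than in monocytes. Zbp1 differed by 1.59 ± 0.35 (SE, adjusted p 0.00449). In TR-AΦ Zbp1 was 2.74 to 9.72 FPKM at 4 weeks and 5.41 to 9.37 FPKM at 32 weeks, which overlapped, whereas it fell in monocytes. Without all libraries numbered 2 these differences were -1.54 for Irf1 and 1.86 for Zbp1 (adjusted p 0.00372 and 0.0186), and 2 members were called. At an unadjusted p under 0.05, 8 members and 20.3% of all genes passed. For Isg15 the difference of changes was -0.13 with a 95% interval from -1.09 to 0.83, and for Lgals3bp it was 0.02 (-0.35 to 0.39).

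**Figure D4:**
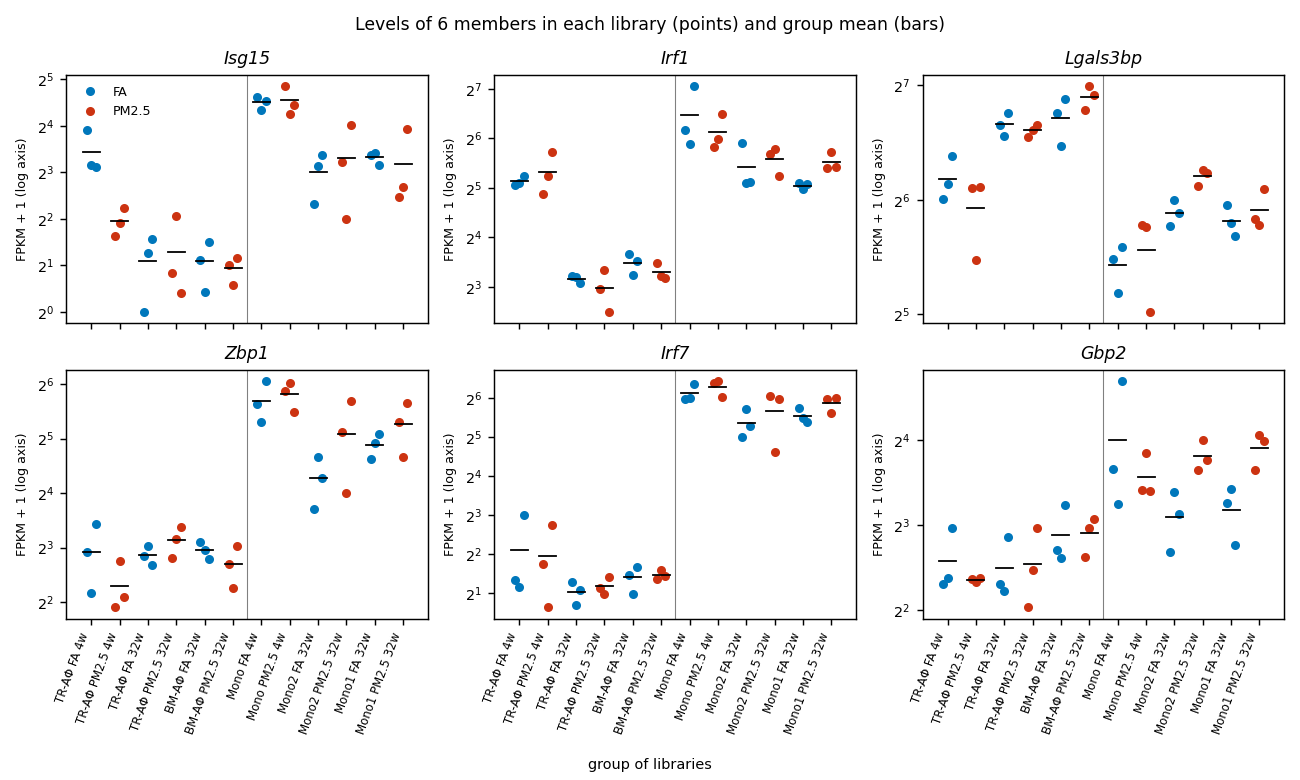
FPKM + 1 on a log2 axis of Isg15, Irf1, Lgals3bp, Zbp1, Irf7 and Gbp2 in each library (points; blue for FA, red for PM2.5) with the mean of the 3 libraries of a group (bars); the grey line parts AΦ from monocytes. Irf1 drops in AΦ between 4 and 32 weeks from 28.3 to 51.6 FPKM to 4.64 to 9.13 FPKM in TR-AΦ, and Irf7 is above 23 FPKM in every monocyte library.

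Origin made no called difference in the members at 32 weeks. Between BM-AΦ and TR-AΦ limma called 0 of 27 members (0.316% of all genes), and 5 passed an unadjusted p under 0.05 (7.45% of all genes), each of them higher in BM-AΦ. These were Ifi27l2a (0.82, adjusted p 0.482), Ifi47 (0.62, adjusted p 0.376), Gbp5 (0.41), Gbp2 (0.40) and Irf1 (0.33). Ifi27l2a was 8.67 to 20.5 FPKM in BM-AΦ and 4.5 to 13.1 FPKM in TR-AΦ, with overlap. The sum of 6 conventional dendritic cell markers was 8.93 to 29.8 FPKM in these BM-AΦ and 1.46 to 4.86 FPKM in TR-AΦ, and its part was not tested. Between Mono1 and Mono2 0 of 41 members were called (0.669% of all genes) and 0 passed the unadjusted p (9.59%), with a median of 0.13. The sum of 5 plasmacytoid dendritic cell markers was 0 to 3.37 FPKM in Mono1 and 5.99 to 13.8 FPKM in Mono2, without overlap. The interstitial macrophage sum was 326 to 1050 FPKM in Mono1 and 915 to 3388 FPKM in Mono2. The part of these sums was not tested.

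Exposure to PM2.5 gave no called member in any of the 6 comparisons with FA. In TR-AΦ at 4 weeks limma called 0 of 27 members (0.0079% of all genes), 1 passed an unadjusted p under 0.05 (2.94%), and 0 members lay above and 2 below FA without overlap (2.31% and 3.51% of all genes). The member that passed was Isg15, whose values in each library are given above. Its groups did not overlap, and its log2 fold change was -1.47 ± 0.46 (SE, unadjusted p 0.00654, adjusted p 1 from limma). The other was Ddx58 (8.23 against 9.07 FPKM, -0.13). In TR-AΦ at 32 weeks 0 of 27 were called (0%), 1 passed the unadjusted p (3.13%) and 1 lay above and 0 below without overlap (3.23% and 2.76%). That was Irgm2, an immunity-related GTPase, with 2.63, 2.81 and 3.11 FPKM in FA, against 4.07, 5.46 and 4.88 FPKM in PM2.5 (0.59 ± 0.23, SE, adjusted p 1). Irgm2 and Igtp shared 1 locus in the table (chromosome 11, 58199556 to 58222782, mm10), so reads could be split between them, and Igtp itself was not called.

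In BM-AΦ at 32 weeks 0 of 27 members were called (0.0158%), 0 passed the unadjusted p (2.05%), and 0 lay above or below without overlap (2.78% and 3.66%). The medians over the members were -0.08, -0.01 and -0.03 in the 3 comparisons of AΦ, and those over all genes were -0.02, 0 and -0.01. The effect of exposure did not differ by time in a called member of TR-AΦ (0 of 27, background 0.0079%), and 1 passed the unadjusted p (3% of all genes). This was Isg15 again, by 1.63 ± 0.65 (SE, adjusted p 1). By origin at 32 weeks 0 of 27 were called (0.0158%) and 0 passed the unadjusted p (1.89%).

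In monocytes at 4 weeks 0 of 41 members were called (0.00778%), 1 passed the unadjusted p (2.12%), and 1 lay above and 0 below without overlap (3.54% and 3.03%). Oas2, a further oligoadenylate synthetase, was 6.04, 3.91 and 5.45 FPKM in FA, against 12.2, 12.1 and 6.13 FPKM in PM2.5 (0.82 ± 0.29, SE, adjusted p 1). The PM2.5 library numbered 2, which held the most neutrophil marker RNA, was nearest to FA. The median was 0.14 over the members and -0.01 over all genes. That of the members became 0.48 without all libraries numbered 2, where 0 members were called and Oas2 differed by 1.16 (adjusted p 0.92).

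In Mono1 at 32 weeks 0 of 41 members were called (0%), 3 passed the unadjusted p (4.74%), and 5 lay above and 0 below without overlap (6.49% and 2.4%). The median was 0.09 over the members and 0.03 over all genes. Gbp2, a guanylate-binding GTPase, was 8.58, 9.79 and 5.79 FPKM in FA, against 11.6, 15.8 and 14.9 FPKM in PM2.5 (0.75 ± 0.31, SE, adjusted p 0.946). Cmpk2 was 6.02, 4.99 and 1.46 FPKM in FA, against 7.23, 7.12 and 10.9 FPKM in PM2.5 (0.98 ± 0.39, SE, adjusted p 0.946), and Ifi35 was 5.96, 5.42 and 4.11 against 7.54, 6.53 and 13 FPKM (0.66, adjusted p 0.946). Irf1 and Ifit2 were the other members of Mono1 without overlap (0.47 and 0.81, adjusted p 0.981 and 0.946). The non-classical marker sum was 739 to 1540 FPKM in FA and 1563 to 1870 FPKM in PM2.5 Mono1, which did not overlap either, and its part was not tested.

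In Mono2 at 32 weeks 0 of 41 were called (0%), 2 passed the unadjusted p (4.25%), and 2 lay above and 0 below without overlap (3.81% and 2.57%). Gbp2 was 5.41, 9.49 and 7.77 FPKM in FA, against 11.5, 15.1 and 12.6 FPKM in PM2.5 Mono2 (0.74 ± 0.31, SE, adjusted p 1). The other member that passed the unadjusted p was Ifit2 (1.02), whose ranges overlapped, and the other without overlap was Lgals3bp (0.32). Mono1 and Mono2 may come from the same mice, so their differences in Gbp2 are not independent of each other. Of 41 members 34 had a positive fold change in Mono2, beside 6799 of all 12856 genes. The median was 0.20 over the members and 0.02 over all genes. Without the PM2.5 library of Mono2 numbered 2 the median of the members was -0.07, and without that numbered 1 it was 0.46. The non-classical marker sum was 584 to 1232 FPKM in FA and 1055 to 1533 FPKM in PM2.5 Mono2. In the PM2.5 libraries of Mono2 numbered 0, 1 and 2 the alveolar macrophage marker sum was 387, 1588 and 879 FPKM. In FA Mono2 it was 349 to 751 FPKM, and the part of these sums was not tested.

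**Figure D5:**
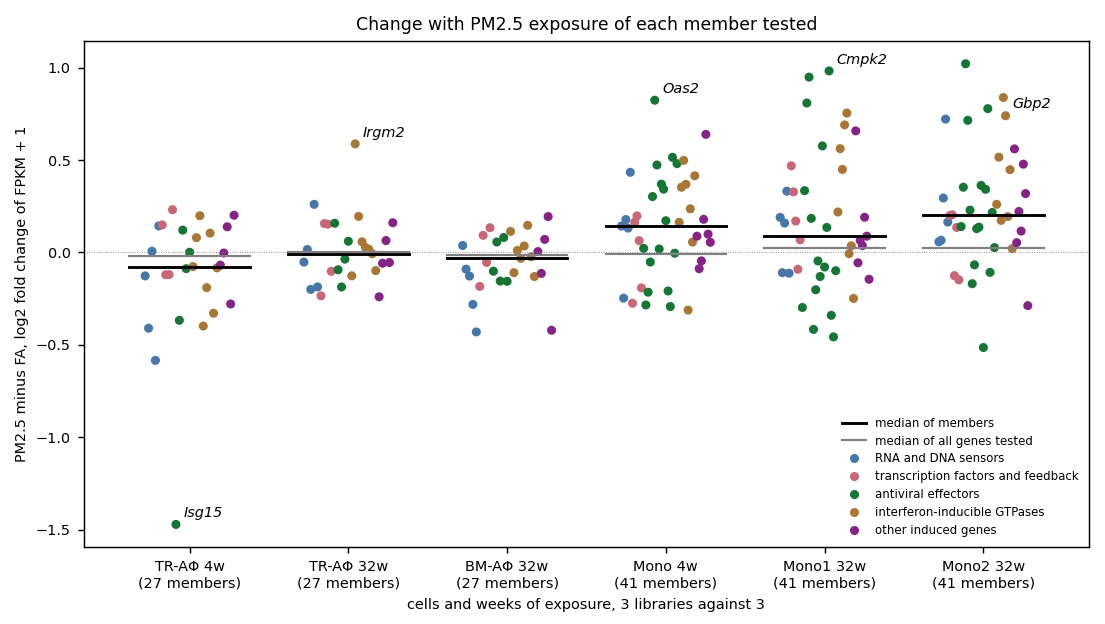
Log2 fold change of FPKM + 1 between PM2.5 and FA for each member tested (points, coloured by role) in TR-AΦ, BM-AΦ and monocytes, 3 libraries against 3, with the median of the members (black) and of all genes (grey). Points of AΦ lie between -0.58 and 0.59 apart from Isg15 at -1.47, and those of monocytes spread from -0.51 to 1.02.

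The members varied together from library to library. After the mean of each group was removed, 39 of 40 members had a positive correlation with the mean of the others over the 36 libraries, with a median Pearson r of 0.58. The highest were Oasl2 (0.83), Trim30a (0.82) and Oas3 (0.81), and the only negative 1 was Irf1 (-0.07). These libraries share their depth and cell content within a sort, so the correlations are given as a description. The share of all genes with a positive correlation to this mean was not computed. The correlation is therefore not shown to be particular to the members. The genes outside the members whose levels followed their mean most closely were Mndal (r = 0.83), Sp100 (0.81), Slfn5 (0.81), Znfx1 (0.80), Ifi203 (0.80), Pyhin1 (0.80), Slfn1 (0.80), Trim30d (0.79), Tmpo (0.78) and Actr3 (0.77), each over 36 libraries. Of these 10, the genes Mndal, Sp100, Slfn5, Ifi203 and Slfn1 were on the list of further interferon-induced genes.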

How the data were processed

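RNA of sorted cells was made into stranded libraries, and the authors trimmed the reads, aligned them with STAR to mm10 under GENCODE guidance and deposited FPKM per gene from Cufflinks. The deposited FPKM carry no read counts, so limma (3.58.1, R 4.3.3) was run on log2(FPKM + 1), with 1 mean per group, a trended prior and genes of mean FPKM of at least 1. Models held the 18 AΦ, the 18 monocyte or all 36 libraries. Adjusted p-values are Benjamini-Hochberg over all genes of a comparison, called under 0.05. The fit was tested on simulated data. Figures and motif searches used Python (3.11.15, pandas 2.3.3, matplotlib 3.10.9). The members, roles, lists and tests were chosen with earlier results of these data known.

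Members named with full values were up to 6 called per direction, or, for PM2.5 against FA, those with p under 0.05 and groups that did not overlap. A further 16 members were open to description by group whatever their values. Pathway genes were named up to 4 per direction. Alternatives were a pseudocount of 0.1, no filter, quantile normalization, median scaling, fits on the groups compared only, a replicate block and leaving out each library. Leaving out all libraries numbered 2 was chosen after seeing the data. No 2 libraries held identical values. Counts over the list of receptors and kinases are not reported here.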

Additional observations from a re-analysis of the deposited data

Results flagged for a closer look

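The change between 4 and 32 weeks differed between TR-AΦ and monocytes for 2 of 40 members, by the interaction term of limma. As 7.88% of 13307 genes were called, the members were called no more often than all genes. The marker sums that moved between Mono and Mono2 are given above, and their part was not tested. Irf1 differed by -1.39 on the log2 scale, with the larger fall in TR-AΦ, and Zbp1 differed by 1.59, with a fall in monocytes and no called change in TR-AΦ. Groups held 3 libraries, so no single library was tested as an outlier.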

How the results depend on the processing

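Of 18 counts of members called, 18 stayed within 1.5 times the reported count with quantile normalization and with no filter, and no named fold change reversed under any alternative. With fits on the groups compared only, 5 members were called between Mono2 at 32 weeks and Mono at 4 weeks in place of 10, 1 in place of 2 in TR-AΦ over time in FA and 0 in place of 1 in PM2.5. The count in FA was also 1 with a pseudocount of 0.1 and without all libraries numbered 2, and that in PM2.5 was 2 with median scaling. When single libraries were left out, 6 to 13 members were called for Mono2 against Mono, fewest without the FA library numbered 2 of Mono, and 1 to 2 for TR-AΦ over time in FA and in PM2.5. With a pseudocount of 0.1 the medians between cell types were -1.95, -1.87 and -1.76.

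Whether a shared replicate number marks a shared mouse is not stated. Over all genes, 2 of 42 pairs with the same number, exposure and time had correlated deviations over 0.1. Over the members alone 29 of 42 did, among them 6 of 6 pairs of Mono1 and Mono2 (0.239 to 0.621) and 5 of 6 of BM-AΦ and TR-AΦ (0.0801 to 0.459). Some pairs with the same number but another exposure or time, which cannot share a mouse, also passed 0.1 over the members. Their share was not counted, so a pairing was neither shown nor set aside. With a replicate block within a time point, 6 members were called in TR-AΦ over time in place of 3, 2 in place of 1 in PM2.5 and 4 in place of 2 for the difference between cell types. The causes of these changes were not tested. FPKM without read counts limit what can be said of members under 1 FPKM.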
